A study of Mus musculus with 6 samples.

Results

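The mRNAs of 7 transport proteins that hepatocytes release into the blood were followed in liver RNA-Seq data: Alb, Ttr, Rbp4, Gc, Ahsg, Ambp and Azgp1. They are the 7 of 52459 genes in the count table whose symbols stand in a list of plasma carriers, and all 7 passed the filter on low counts that left 17032 genes for testing. RNA came from whole livers of 6 male Alb-Cre/Cas9 F1 mice of the strain C57BL6J, in 2 groups of 3. The sgCtrl group (mice 5.1, 7.1 and 7.2) had a control guide RNA, and the sgPrdx2 group (mice 1.1, 1.3 and 3.2) had one against Prdx2, which encodes the antioxidant enzyme peroxiredoxin 2. An AAV8 vector carried the guide and was given intravenously at 4 to 5 weeks of age. After 3 weeks all 6 mice were given diethylnitrosamine (DEN), which causes liver tumours, at 100 mg/kg. From 1 week after DEN they ate the choline-deficient high-fat diet CDA-HFD for 6 months, and they were 8 months old at sampling. Cre came from the albumin promoter in both groups, which places Cas9 in hepatocytes. The guide reaches only transduced hepatocytes, and the other cells of the liver and any hepatocyte without vector stay in the sample. The 6 livers analysed hold no group without DEN or without the diet.

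Plasma carriers are made on the rough endoplasmic reticulum of hepatocytes, leave the cell through the Golgi apparatus and are released without being stored in granules. Albumin and the vitamin D-binding protein encoded by Gc are related proteins whose genes lie close together, and transthyretin carries thyroxine and also holds retinol-binding protein in the circulation. Several of these proteins are negative acute phase proteins, whose production falls in inflammation, and albumin in plasma is a routine measure of the liver's synthetic function.

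In GENCODE M21 (GRCm38) all 7 are protein-coding genes, and none of the 50-base stretches of their longest transcripts occurs in another gene. Alb lies at chr5:90460897-90476602 (plus strand), Gc at chr5:89417522-89457898 (minus), Azgp1 at chr5:137981520-137990233 (plus), Rbp4 at chr19:38116629-38125281 (minus), Ahsg at chr16:22891277-22899449 (plus) and Ambp at chr4:63143275-63154799 (minus).

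The promoters of Alb and Gc are shown because these genes of 1 family lie close together, while the ratio of their mRNAs did not overlap between the groups. It is 1 of 21 ratios computed, none of which passed after adjustment. The 250 bases before the RefSeq start site of each (GRCm38.p6) are printed from 5′ to 3′, at chr5:90460620-90460869 on the plus strand for Alb and at chr5:89457899-89458148 on the minus strand for Gc. Capitals mark matches to GTTAAT, part of the HNF1 site, and to TTGCNNAA, a C/EBP motif, on either strand.
Alb: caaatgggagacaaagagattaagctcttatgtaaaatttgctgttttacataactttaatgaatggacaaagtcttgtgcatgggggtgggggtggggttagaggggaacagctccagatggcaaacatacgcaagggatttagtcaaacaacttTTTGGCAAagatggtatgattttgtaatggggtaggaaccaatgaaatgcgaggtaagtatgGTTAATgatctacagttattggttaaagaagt
Gc: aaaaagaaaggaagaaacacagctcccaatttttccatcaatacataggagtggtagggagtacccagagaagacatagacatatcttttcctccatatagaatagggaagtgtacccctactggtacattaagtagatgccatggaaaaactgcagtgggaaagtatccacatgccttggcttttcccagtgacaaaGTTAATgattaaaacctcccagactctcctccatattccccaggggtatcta
GTTAAT began 32 bases before the start of Alb and 52 bases before the start of Gc, and it is present in 6.43% of 32851 mouse promoters of the same length. The C/EBP match of Alb lay on the opposite strand and began 94 bases before the start. C/EBP matches occur in 9.56% of promoters, and Ahsg also had one, 32 bases before its RefSeq start. Of the other motifs searched on both strands, TGTTTAC for FOXA (3.17% of promoters) matched upstream of the first of 2 starts of Rbp4, and TATAAA (12.4%) and the C/EBP motif matched upstream of its second start. CAAAGTCCA for HNF4 (0.384%) matched in none of the 6 genes examined, and Ambp and Azgp1 had no match to any of the 5 motifs. RefSeq and GENCODE starts differ for some of these genes. The windows of Ahsg (chr16:22891765-22892014) and Ambp (chr4:63154173-63154422) lie inside the GENCODE genes given above. The Alb window ends at 90460869, while its GENCODE gene begins at 90460897. Distances and missing matches therefore hold for the RefSeq starts only. These matches describe letters in the window and were not tested as binding sites.

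Libraries held 37462102 to 56865293 counts per liver, so counting error was small beside the spread between livers. For albumin in sgCtrl liver 5.1, the 95% Wilson interval of its share of counts ran from 6.92% to 6.93%, which covers counting error only. Prdx2 itself had 119 ± 11.6 CPM (reads per 1e6 counted reads) in sgCtrl and 120 ± 26.1 CPM in sgPrdx2 livers (SD, n = 3 each), with a log2 difference of 0.01 (SE 0.18, adjusted p = 0.983 by edgeR's quasi-likelihood test), so its mRNA does not check the labels. In sum, 12 hepatocyte markers reached 17750 to 21270 CPM in the sgCtrl livers, and 35020 to 43860 CPM, without overlap, in the others, so both groups hold hepatocyte RNA. TMM factors, edgeR's correction of library size for composition, were 1.12 to 1.17 in the control livers, against 0.805 to 0.951 in sgPrdx2, and the median log2 difference of all genes was -0.02.

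All 7 carrier mRNAs were at a higher level in the sgPrdx2 livers, and 2 of them, Ttr and Alb, passed the test. Log2 differences ran from 0.52 for Gc to 1.35 for Ttr, with a median of 0.71. At an adjusted p under 0.05 by edgeR's quasi-likelihood test, 1.79% of the 17032 genes were called higher (305 genes) and 3.33% were called in either direction (567 genes). Of these calls 53.8% were higher, against 6.34% with total counts alone and 7.09% with scaling to housekeeping genes. An unadjusted p under 0.05 was reached by 4241 of the 17032 genes, and by all 7 carriers. For each of the 7, the lowest sgPrdx2 liver lay above the highest sgCtrl liver on the TMM scale, which 16.7% of all genes tested also showed. In whole liver, fewer cells of a type and less RNA per cell cannot be told apart.

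**Figure D1:**
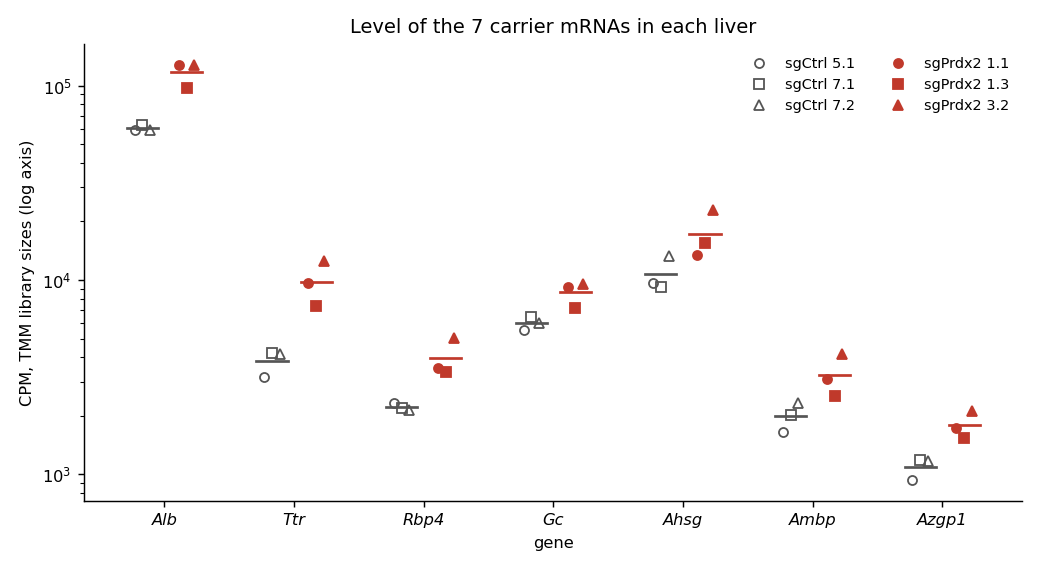
Level of each carrier mRNA in each liver as CPM with TMM library sizes on a log axis, with sgCtrl livers as open and sgPrdx2 livers as filled symbols and lines at the group means. The 3 sgPrdx2 livers lie above the 3 sgCtrl livers for all 7 genes, with the widest gap for Ttr.

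Albumin, the most abundant plasma protein, which carries fatty acids, bilirubin and many drugs and holds water in the vessels, was at 59259, 62569 and 58815 CPM in sgCtrl livers 5.1, 7.1 and 7.2. It was at 127720, 97610 and 128020 CPM in sgPrdx2 livers 1.1, 1.3 and 3.2. The sgCtrl livers lay close together, with a coefficient of variation of 3.41%, against 14.8% in sgPrdx2 livers, where liver 1.3 was the lowest. Albumin mRNA rose 1.96-fold (log2 difference 0.97, SE 0.20, adjusted p = 0.0473). The call stood near the threshold: adjusted p was 0.0571 when only genes with at least 10 counts in every liver were tested, and ran from 0.073 to 0.165 when 1 liver was left out.

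Transthyretin, encoded by Ttr, carries thyroxine in blood and binds retinol-binding protein. It was at 3164, 4193 and 4164 CPM in sgCtrl and at 9658, 7325 and 12479 CPM in sgPrdx2 livers. The lowest sgPrdx2 liver, 1.3, was 1.75 times the highest sgCtrl liver, the widest separation among the 7. Ttr rose 2.56-fold (log2 difference 1.35, SE 0.24, adjusted p = 0.0394), a difference at percentile 99.1 of all genes tested. Without 1 liver, its adjusted p ran from 0.0462 to 0.144, and it passed only when sgPrdx2 liver 3.2 was left out.

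Retinol-binding protein, encoded by Rbp4, takes retinol from liver stores to other tissues. Its mRNA was at 2326, 2205 and 2152 CPM in sgCtrl and at 3539, 3367 and 5017 CPM in sgPrdx2 livers. The sgCtrl livers were again close together, and sgPrdx2 liver 3.2 stood above livers 1.1 and 1.3. The log2 difference was 0.84 (SE 0.19, adjusted p = 0.0584), which missed the threshold in edgeR. It passed in 2 other edgeR settings, with no filter on low counts (adjusted p = 0.0302) and with transcript length and GC content as an offset (adjusted p = 0.0488), where its log2 difference was 0.57.

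Gc encodes the vitamin D-binding protein, which also binds actin released from damaged cells. Its mRNA was at 5554, 6460 and 6001 CPM in sgCtrl and at 9170, 7192 and 9534 CPM in sgPrdx2 livers. Its log2 difference of 0.52 (SE 0.18, adjusted p = 0.130) was the smallest of the 7, and liver 1.3 lay 1.11 times above the highest sgCtrl liver. Gc and Alb are of the same family and lie on the same chromosome. Their ratio did not overlap between the groups but did not pass after adjustment, as given below.

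Ahsg encodes fetuin-A, which binds calcium phosphate in blood and keeps it from forming deposits. Its mRNA was at 9701, 9222 and 13338 CPM in sgCtrl and at 13499, 15475 and 22811 CPM in sgPrdx2 livers. It varied most within the groups, with coefficients of variation of 20.9% and 28.4%, and the lowest sgPrdx2 liver was only 1.01 times the highest sgCtrl liver. The log2 difference was 0.68 (SE 0.26, adjusted p = 0.156), and 0.44 without sgPrdx2 liver 3.2, the highest. In GENCODE M21, an exon of Ahsg overlaps the gene Gm30505, and whether counting used strand is not given in the sources used here.

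Ambp encodes a precursor that is cut into alpha-1-microglobulin, a lipocalin that binds heme, and bikunin, a protease inhibitor. Its mRNA was at 1658, 2017 and 2342 CPM in sgCtrl and at 3093, 2538 and 4137 CPM in sgPrdx2 livers. The groups came within 1.08-fold of each other, between sgPrdx2 liver 1.3 and sgCtrl liver 7.2. The log2 difference was 0.70 (SE 0.23, adjusted p = 0.118).

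Azgp1 encodes zinc-alpha-2-glycoprotein, a secreted protein with the fold of major histocompatibility class I molecules that has been tied to fat breakdown. Its mRNA was at 935, 1179 and 1173 CPM in sgCtrl and at 1735, 1533 and 2117 CPM in sgPrdx2 livers. The highest sgCtrl liver lay well below the lowest sgPrdx2 liver, which was 1.3 times higher. The log2 difference was 0.71 (SE 0.18, adjusted p = 0.0709).

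Within the sgPrdx2 group, liver 3.2 was the highest for all 7 and liver 1.3 the lowest for all but Ahsg, for which liver 1.1 was the lowest. Within the sgCtrl group, liver 5.1 was the lowest for Ttr, Gc, Ambp and Azgp1 but the highest for Rbp4. Pearson correlations of log2 CPM between members over the 6 livers ran from 0.747 for Gc with Ahsg to 0.993 for Ttr with Azgp1. These values are a description over livers that share the split into groups.

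DESeq2 placed all 7 past the same threshold. Its adjusted p was 7.81e-07 for Alb, 7.75e-07 for Ttr, 0.000479 for Rbp4, 0.00271 for Azgp1, 0.0197 for Gc, 0.0203 for Ambp and 0.0401 for Ahsg, with log2 differences of 0.53 to 1.36. It also called 7.63% of the 15276 genes with an adjusted p as higher (1165 genes), so its calls were more frequent for all genes, too.

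The differences moved more with some scalings than with DESeq2. With total counts alone as library sizes, the median of all genes moved to -0.39, and the 7 log2 differences ran from 0.14 for Gc to 0.97 for Ttr. The study's 6 housekeeping genes, used there for a signature in human cells, entered as the sum of their counts. Atp5b was the largest part, at 1156 CPM in sgCtrl and 1576 CPM in sgPrdx2 livers, before Hnrnpa2b1 at 348.5 and 333 CPM. Atp5b, Cox8a and Ndufa2 encode parts of oxidative phosphorylation, which the paper reports as increased in the knockout. Scaling to these 6 genes moved the median of all genes to -0.39 as well. It gave 0.14 for Gc, 0.29 for Ahsg, 0.31 for Ambp, 0.33 for Azgp1, 0.44 for Rbp4, 0.58 for Alb and 0.96 for Ttr. All 7 kept a positive sign, and Ttr (adjusted p = 0.0255) passed under that scaling while Alb (adjusted p = 0.0508) did not. Relative to the median of all genes, the 7 lay 0.53 to 1.35 higher under that scaling. With the offset for transcript length and GC content, the 7 log2 differences ran from 0.43 for Gc to 1.15 for Ttr. The median of the 7 lay 0.52 above that of all genes with this offset. It lay 0.73 above with TMM and 0.72 above with housekeeping scaling.

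**Figure D2:**
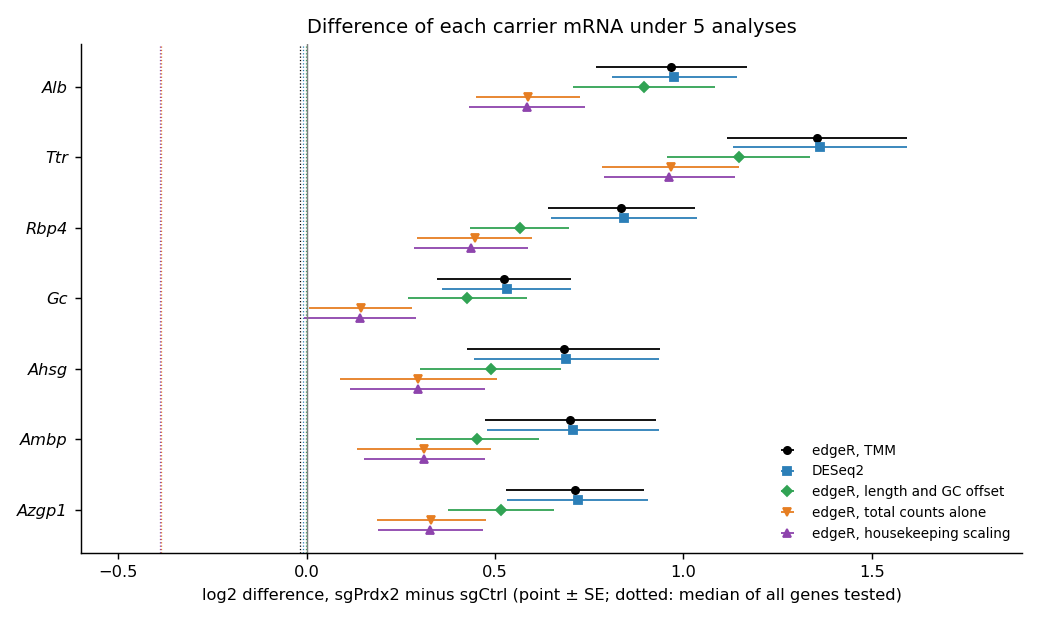
Log2 difference between sgPrdx2 and sgCtrl livers for each carrier mRNA, with its standard error, under edgeR with TMM, DESeq2, an offset for transcript length and GC content, total counts alone and scaling to 6 housekeeping genes. All points lie right of 0, and the points of the last 2 scalings lie to the left of the others, as does the dotted median of all genes, at -0.39.

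Hepatocyte markers moved with the carriers. All 12 had a higher level in sgPrdx2 livers (median log2 difference 1.06), and 3 were called higher, beside 1.79% of all genes. These 3 were Serpina1a, which encodes alpha-1-antitrypsin, Cyp2e1 and Apoa1. Their log2 differences were 1.25 (SE 0.23, adjusted p = 0.0409), 0.96 (SE 0.18, adjusted p = 0.0409) and 1.15 (SE 0.23, adjusted p = 0.0466). Each member was therefore also set against the mean log2 level of the 12 markers in the same liver, a scaling chosen after the data were seen. That mean was 8.63, 9.55 and 9.34 in sgCtrl and 10.2, 10.3 and 10.2 in sgPrdx2 livers, lowest in sgCtrl liver 5.1. It weighs each marker equally. In liver 5.1 Hal was at 32.6 CPM (106 and 141 in livers 7.1 and 7.2) and Ass1 at 238.5 CPM (566 and 705). Apoa1 was only slightly lower there, at 7746 CPM (8152 and 8135), and Cyp2e1 was highest there, at 5308 CPM (5049 and 3922). For the sum of the markers, the ratio of group means was 1.97, beside the 1.96-fold difference of Alb.

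On that scale, 6 of the 7 log2 differences were below 0. Without sgCtrl liver 5.1 this held for 4 of the 7, as Alb moved to 0.15 and Rbp4 to 0.05, and without sgPrdx2 liver 1.3 for 5, with Alb at 0.05. With all 6 livers Ttr was above 0, at 0.27 (two-sided exact permutation test, p = 0.4). Alb was at -0.11 (p = 0.8, exact), Rbp4 at -0.25 (p = 0.5, exact), Azgp1 at -0.36 (p = 0.3, exact), Ambp at -0.38 (p = 0.2, exact) and Ahsg at -0.40 (p = 0.2, exact). Gc was at -0.55, or -0.33 without sgCtrl liver 5.1, and was the only member whose groups did not overlap, with 3.81, 3.11 and 3.21 over the markers in sgCtrl and 2.93, 2.51 and 3.04 in sgPrdx2 livers (p = 0.1, exact, the smallest that 3 livers against 3 allow). None of these differences passed 0.05, which this design cannot reach, and the part of the hepatocyte markers in the result was not tested further.

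Markers of cholangiocytes, macrophages, stellate cells, endothelial cells and lymphocytes had medians below that of all genes. Of 7 cholangiocyte markers 0 were called and all 7 had a lower level (median log2 difference -0.37), and their sum was 1631 to 1860 CPM in the control livers, against 1219 to 1395 CPM. Spp1, Epcam and Cftr had the smallest p-values among them (log2 differences -0.46, -0.37 and -0.74, adjusted p = 0.117, 0.123 and 0.200), and these 3 were lower at an unadjusted p under 0.05, with 1 called lower by DESeq2. Of all 17032 genes, 4241 reached that unadjusted level in either direction. Macrophage markers summed to 1609 to 2263 CPM and 1104 to 1198 CPM, and 1 of 7, Gpnmb, a gene of lipid-laden macrophages, fell by 1.08 on the log2 scale (SE 0.18, adjusted p = 0.0373). Gpnmb, at 931 CPM in sgCtrl livers, was the largest part of that sum. All 7 had a lower level (median -0.56), 4 of them at an unadjusted p under 0.05, and DESeq2 called 3 lower. Stellate cell markers summed to 1791 to 2060 CPM and 1292 to 1364 CPM with 0 of 8 called (median -0.56), and 6 had a lower and 2 a higher level. The smallest p-values were those of Rgs5 at -0.62, the contractile gene Acta2 at -1.49 and the collagen gene Col3a1 at -0.63 (adjusted p = 0.0574, 0.0584 and 0.109). At an unadjusted p under 0.05, 5 were lower, and DESeq2 called 3 lower. Of all genes with an adjusted p, DESeq2 called 13.4% in either direction. Endothelial markers overlapped in sum, at 208 to 243.7 CPM and 148 to 230.9 CPM, with Pecam1 (log2 difference -0.77, SE 0.15, adjusted p = 0.0423) called lower. Of the 6, 5 had a lower level and 1, Stab2, a higher one (log2 difference 0.27, adjusted p = 0.506). The endothelial markers had 3 lower at an unadjusted p under 0.05, and DESeq2 called 2 lower. Lymphocyte markers summed to 16.2 to 22.1 CPM and 14.4 to 16.4 CPM, with Cd8a (log2 difference -0.84, SE 0.18, adjusted p = 0.0486) called lower of 5. All 5 had a lower level, 1 of them at an unadjusted p under 0.05, and DESeq2 called 1 lower. In the adipocyte list, 4 of 5 genes, Adipoq, Plin1, Lep and Retn, had at most 3 counts in every liver, and the fifth, Cfd, was at 0 to 0.578 CPM in sgCtrl and 0.666 to 1.46 CPM in sgPrdx2 livers (log2 difference 2.26, SE 1.01, adjusted p = 0.215). Of 8 pancreas markers, 6 had at most 3 counts in every liver and 0 were tested, with a sum of 7.72 CPM in sgCtrl liver 5.1 and of at most 0.361 CPM in the others. The part of these cell types in the carriers' differences was not tested.

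The share of all counts taken by each carrier does not depend on TMM. Albumin took 6.92%, 7.01% and 6.61% of the counts of the sgCtrl livers and 11.3%, 9.28% and 10.3% of those of the sgPrdx2 livers. The other 6 together took 2.95% ± 0.293 in sgCtrl and 3.89% ± 0.540 in sgPrdx2 livers (SD, n = 3 each, two-sided exact permutation test, p = 0.1). All 7 together took 9.65%, 9.85% and 9.89% in sgCtrl livers, with an SD of 0.127, and 14.9%, 12.8% and 14.8% in sgPrdx2 livers, with means of 9.80% and 14.2% (p = 0.1, exact). Albumin alone made up 3.45 of the 4.39 percentage points between these means.

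On this scale 4 of the 7 carriers had groups that did not overlap, which 4.34% of all genes tested also showed, and Gc, Ahsg and Ambp overlapped. Ttr took 0.37%, 0.47% and 0.468% of counts in sgCtrl and 0.854%, 0.697% and 1.004% in sgPrdx2 livers. Rbp4 took 0.272%, 0.247% and 0.242% in sgCtrl and 0.313%, 0.32% and 0.404% in sgPrdx2 livers, and Azgp1 0.109%, 0.132% and 0.132% against 0.153%, 0.146% and 0.17%. For these genes the exact p was 0.1, the smallest that the design allows.

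For Gc, Ahsg and Ambp, sgPrdx2 liver 1.3 lay below the highest sgCtrl liver. Gc took 0.649%, 0.724% and 0.675% in sgCtrl and 0.811%, 0.684% and 0.767% in sgPrdx2 livers (p = 0.2, exact), with sgCtrl liver 7.1 the highest control. Ahsg took 1.13%, 1.03% and 1.499% against 1.19%, 1.47% and 1.84% (p = 0.3, exact), with sgCtrl liver 7.2 above 2 of the sgPrdx2 livers, and the difference of 0.278 percentage points was 0.111 without sgPrdx2 liver 3.2. Ambp took 0.194%, 0.226% and 0.263% against 0.274%, 0.241% and 0.333% (p = 0.2, exact), with sgPrdx2 liver 1.3 below sgCtrl liver 7.2.

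**Figure D3:**
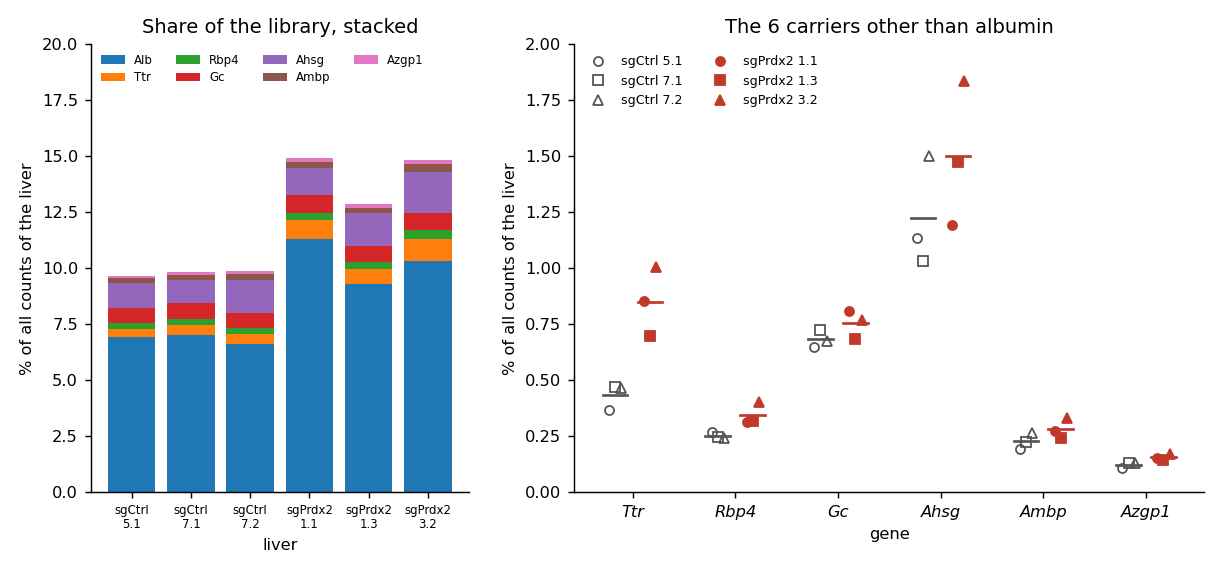
Percentage of all raw counts of a liver taken by the carriers, stacked over the 7 genes on the left and for the 6 genes other than albumin on the right, with lines at group means. The stack reaches 12.8% to 14.9% in sgPrdx2 livers, against 9.65% to 9.89% in controls, and the groups of Gc, Ahsg and Ambp overlap.

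Ratios of 2 carriers within a liver need no scaling between livers. Retinol-binding protein travels bound to transthyretin, and the Rbp4 to Ttr ratio of counts was 0.735, 0.526 and 0.517 in sgCtrl and 0.366, 0.46 and 0.402 in sgPrdx2 livers. All 3 sgPrdx2 livers lay below all 3 sgCtrl livers, with a log2 difference of -0.52 (two-sided exact permutation test, p = 0.1). Without sgCtrl liver 5.1, the highest, this difference was -0.35.

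The Alb to Gc ratio was 10.7, 9.69 and 9.80 in sgCtrl and 13.9, 13.6 and 13.4 in sgPrdx2 livers, with little spread within either group, and a log2 difference of 0.44 (exact permutation test, p = 0.1). Ttr to Gc was 0.57, 0.649 and 0.694 in sgCtrl and 1.05, 1.02 and 1.31 in sgPrdx2 livers, so that Ttr counts passed Gc counts in each sgPrdx2 liver and in no sgCtrl liver. The Ahsg to Ambp ratio lay at 5.85, 4.57 and 5.70 and at 4.37, 6.10 and 5.51, a log2 difference of -0.02 (p = 0.9, exact).

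Of 21 pairs of carriers, 7 had ratios that did not overlap between the groups. These were all 6 pairs with Ttr, and Alb to Gc. The 6 pairs share Ttr, the carrier with the largest log2 difference, so they are not independent observations. How often ratios of other gene pairs did not overlap was not computed. The smallest Benjamini-Hochberg adjusted p over the 21 pairs was 0.3, so no pair passed.

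**Figure D4:**
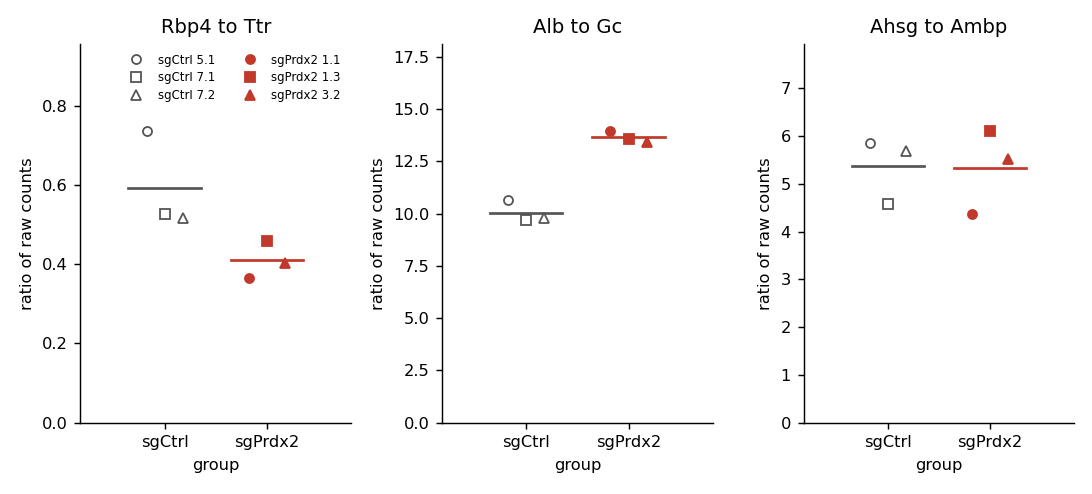
Ratio of raw counts of 2 carriers in each liver for Rbp4 to Ttr, Alb to Gc and Ahsg to Ambp, with sgCtrl livers as open and sgPrdx2 livers as filled symbols and lines at the means. The first 2 ratios do not overlap between groups, at 0.366 to 0.46 against 0.517 to 0.735 and at 13.4 to 13.9 against 9.69 to 10.7, and the third does.

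Levels per kilobase of merged exon length allow the carriers to be ordered within a liver. Albumin was the first of 16540 genes in all 6 livers, at 25710 ± 875.9 CPM per kb in sgCtrl and 50290 ± 7459 CPM per kb in sgPrdx2 livers (SD, n = 3 each). In sgCtrl livers it was followed by Ahsg (4895 ± 1024), Gc (3255 ± 245), Ttr (3238 ± 494), Rbp4 (1659 ± 66.5), Ambp (1423 ± 243) and Azgp1 (680 ± 86.2 CPM per kb). In sgPrdx2 livers the order was Ttr (8280 ± 2176), Ahsg (7857 ± 2233), Gc (4679 ± 683), Rbp4 (2959 ± 675), Ambp (2311 ± 576) and Azgp1 (1115 ± 184). The order changed from liver to liver for Gc and Ttr and for Rbp4 and Ambp in the sgCtrl group, and for Ttr and Ahsg in the sgPrdx2 group, while Rbp4 lay above Ambp in all 3 sgPrdx2 livers. The other neighbours in each order kept it in all 3 livers of the group. With the length of the longest transcript in place of merged exons, Ahsg lay above Ttr in sgPrdx2 livers too (11630 against 8280 CPM per kb), so their order there turned with the choice of length. Rbp4 then lay above Ambp in all 6 livers. Among all genes, Ahsg ranked 5 to 10, Ttr 6 to 15, Gc 10 to 16, Rbp4 17 to 25, Ambp 21 to 28 and Azgp1 43 to 58.

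The genes whose log2 CPM over the 6 livers was most like each carrier were sought among the 14123 genes whose mean reached 1 CPM. For Alb these included Hdac11 (Pearson r = 0.997) and Clcn2, for Ttr Ndufb3 (0.997), Gm13339 and Shmt2, and for Rbp4 Pink1 (0.9995), Gm20522 and Wfdc1. For Gc they were Lss (0.999), Msra and Sephs1, for Ahsg Gm2225 (0.997), Desi1 and Emg1, for Ambp Tpi1 (0.997), Abcb8 and Pld6, and for Azgp1 Mtch2 (0.999), Slc46a1 and Gm28661. With 6 livers and 14123 genes searched, such values are a description.

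The carriers' relatives were described by lists of genes, whose median is given beside the -0.02 of all genes. Afm, the vitamin E-binding member of the albumin family, rose (132 ± 25.0 against 265 ± 44.7 CPM, log2 difference 1.002, SE 0.20, adjusted p = 0.0455). Its other member in the table, the fetal protein gene Afp, was at 7.63 ± 2.35 and 6.94 ± 2.22 CPM (log2 difference -0.14, adjusted p = 0.802). The 2 had a median of 0.43.

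Among 12 other plasma carriers 3 were called higher and 0 lower (median 0.70). Apoh, which binds phospholipids, rose by 0.97 (SE 0.16, adjusted p = 0.0358), and Igfals, which holds insulin-like growth factors in plasma, by 1.27 (SE 0.22, adjusted p = 0.0394) on the log2 scale. Afm is the third. Of the 5 plasma proteins with cystatin domains, to which fetuin-A belongs, 1 was called higher, Hrg (log2 difference 1.24, SE 0.18, adjusted p = 0.0355; median of the list 0.74). Of 7 lipocalins other than the members, 1 was called higher, C8g, a part of the complement attack complex (log2 difference 1.25, SE 0.25, adjusted p = 0.0459; median 0.997). Apom (log2 difference 1.18, adjusted p = 0.0555) and Lcn2 (log2 difference -0.73, adjusted p = 0.123) did not pass in edgeR. At an unadjusted p under 0.05, 9 of the 12 other carriers and 4 of the 5 cystatin genes were higher. Of all 17032 genes, 4241 reached this unadjusted p in either direction. Of the 7 lipocalins 5 were higher and 1 lower at that level. DESeq2 called 6, 4 and 4 genes of these lists higher, and 1 lipocalin lower. Of all genes, edgeR called 1.79% higher, and DESeq2 called 7.63% of those with an adjusted p higher.

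The genes that handle the cargo of the carriers passed edgeR's test in 0 cases, although DESeq2 called some of them. Of 17 genes of retinol handling 0 were called (median 0.34, and -0.01 when scaled to the housekeeping genes), and the smallest p-values were those of Cyp26a1, which degrades retinoic acid (log2 difference 1.66, SE 0.41, adjusted p = 0.066), Rxra (0.47, adjusted p = 0.0984) and Dhrs4 (0.42, adjusted p = 0.109). At an unadjusted p under 0.05 edgeR had 6 of them higher and 1 lower, and DESeq2 called 4 higher. That unadjusted level was reached by 4241 of all 17032 genes in either direction, and the counts of each list stand beside this background. DESeq2 called 7.63% of all genes with an adjusted p higher, and 13.4% in either direction. Of 11 genes of thyroid hormone handling 0 were called (median 0.39), with Slco1a4, a transporter, at 0.88 (adjusted p = 0.0678), Crym at -1.09 (adjusted p = 0.101) and Slc16a10 at 0.39 (adjusted p = 0.155), while 3 were higher and 1 lower at an unadjusted p under 0.05 and DESeq2 called 1 in each direction. Of 5 genes of vitamin D handling 0 were called (median 0.64), with the vitamin D 25-hydroxylase Cyp2r1 at 0.64 (adjusted p = 0.0599), Cyp27a1 at 0.81 (adjusted p = 0.0814) and Vdr at -1.42 (adjusted p = 0.0886), while 3 were higher and 1 lower at an unadjusted p under 0.05, and likewise in DESeq2. Bikunin is part of the inter-alpha-inhibitor complex. Of 6 genes, the Itih family and Tnfaip6, 0 were called (median 0.20, and -0.14 when scaled to the housekeeping genes). Itih1 was at 0.78 (adjusted p = 0.0709), Tnfaip6 at -0.98 (adjusted p = 0.181) and Itih4 at 0.46 (adjusted p = 0.204). At an unadjusted p under 0.05, 1 was higher and 1 lower, and DESeq2 called 1 higher.

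Of 14 transcription factors listed for a possible part at the albumin promoter 0 were called (median 0.28, and -0.07 when scaled to the housekeeping genes). Cebpa was at 204 ± 38.4 and 325 ± 35.2 CPM (log2 difference 0.67, adjusted p = 0.0772), Dbp at 119 ± 47.6 and 280 ± 102 CPM (1.23, adjusted p = 0.082) and Cebpb at 27.3 ± 4.29 and 39.7 ± 6.22 CPM (0.54, adjusted p = 0.111). Of the 14, 5 were higher at an unadjusted p under 0.05, which 4241 of all 17032 genes reached in either direction, and DESeq2 called 3 higher. The 35 genes of secretory export tested also had 0 called (median 0.08, and -0.29 when scaled to the housekeeping genes), with Sar1b at 0.48 (adjusted p = 0.116), Mcfd2 at -0.35 (adjusted p = 0.231) and Sec24b at -0.32 (adjusted p = 0.258), and 1 was higher at an unadjusted p under 0.05 and in DESeq2. Of the 5 genes tested for uptake and recycling of albumin 0 were called (median 0.04, and -0.35 when scaled to the housekeeping genes), with Fcgrt, the receptor that returns albumin to blood, at 0.40 (adjusted p = 0.160), Stab1 at -0.24 (adjusted p = 0.264) and Stab2 at 0.27 (adjusted p = 0.506), while 1 was higher at an unadjusted p under 0.05 and 0 were called by DESeq2. Under the housekeeping scaling the median of all genes was -0.39. Of all genes with an adjusted p, DESeq2 called 7.63% higher.

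Positive acute phase proteins, which rise in inflammation as several of the carriers fall, had 3 of 19 called higher and 0 lower (median 0.70). Over all genes, edgeR called 1.79% higher, and DESeq2 called 7.63% of those with an adjusted p higher. DESeq2 called 8 of the 19 higher and 1 lower. At an unadjusted p under 0.05 edgeR had 10 higher and 1 lower. Of all 17032 genes, 4241 reached that unadjusted level in either direction. Serpina3n, Fgb and Saa4 rose by 0.70 (SE 0.15), 0.83 (SE 0.18) and 1.07 (SE 0.23) on the log2 scale, each with an adjusted p of 0.0491. Lcn2 and Apcs, the only 2 of the 19 with a lower level, lay at -0.73 and -0.64 and did not pass in edgeR (adjusted p = 0.123 and 0.338). The housekeeping genes used for scaling had 0 of 6 called and a median of 0.43, with Cox8a at 0.65, Ndufa2 at 0.68 and Atp5b at 0.45 (adjusted p = 0.0895, 0.128 and 0.136), 3 of 6 at an unadjusted p under 0.05 and 3 called by DESeq2.

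**Figure D5:**
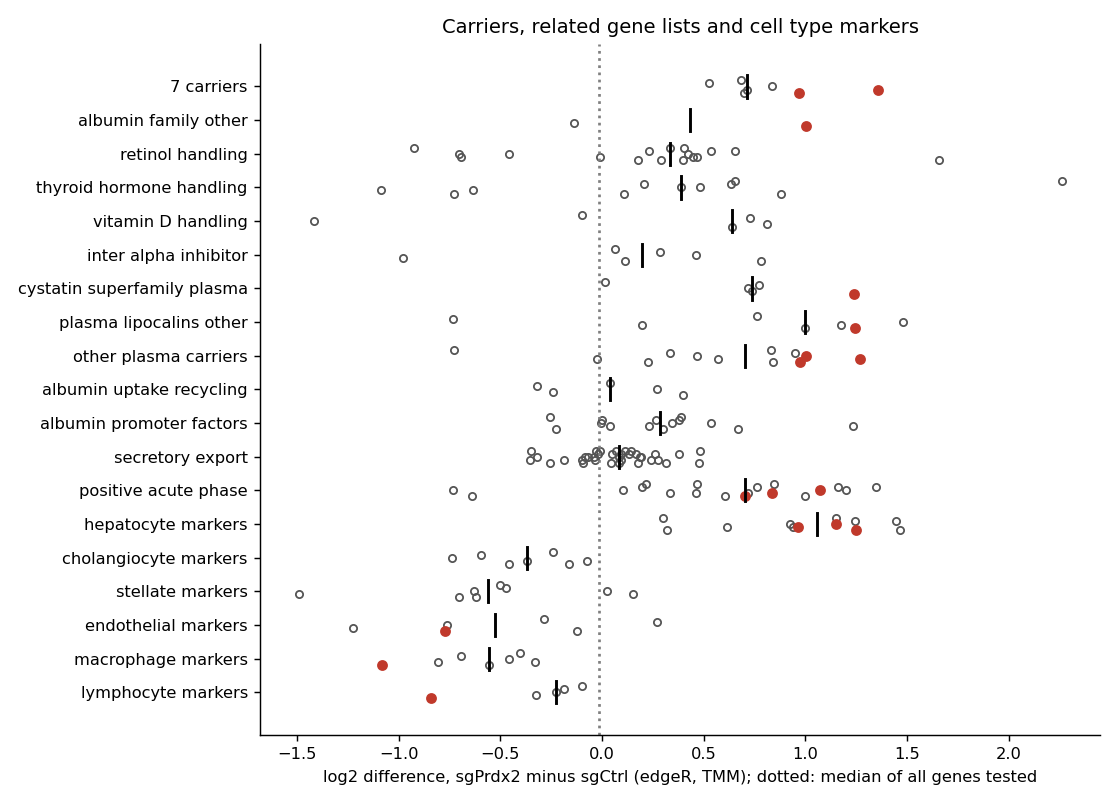
Log2 difference between sgPrdx2 and sgCtrl livers for the 7 carriers, related gene lists and cell type markers, with 1 point per gene tested, called genes filled, and a bar at each median. The carriers have a median of 0.71 and the hepatocyte markers of 1.06, while markers of cholangiocytes, stellate cells, endothelial cells, macrophages and lymphocytes have medians from -0.56 to -0.23.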

How the data were processed

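The authors deposited the counts of reads per gene in each liver, as whole numbers without normalization, for 52459 genes. HISAT2, HTSeq, DESeq2 and GRCm38 are named in the submitters' processing notes, and the annotation and strandedness are not given in the sources used here. A second table, holding the authors' own DESeq2 comparison with fold changes and p-values, was not used. Groups came from the sample labels, which give each liver its own mouse and no batch. No 2 livers agreed within sampling noise (chi-square per degree of freedom of at least 34.0).

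Differences were tested with edgeR 4.0.16 in R 4.3.3 (filterByExpr with a minimum count of 10, TMM, glmQLFit, glmQLFTest, all 6 livers, no covariate), with Benjamini-Hochberg adjustment over 17032 genes. Genes with an adjusted p under 0.05 were called. CPM used TMM library sizes. Single values were compared by two-sided exact permutation tests (scipy 1.17.1), whose smallest p with 3 against 3 livers is 0.1. Transcript lengths, GC content and positions came from GENCODE M21 (GRCm38), which need not be the annotation the authors used and matched 48001 of the gene symbols, and promoters from RefSeq (6 of the 7 genes searched). The fits were also run on simulated data, with changes larger than those of the 7 carriers, so that run does not cover differences of their size.

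The members and gene lists were chosen with earlier results of these data known. Genes named are the members, Prdx2, in each list the called genes or else the 3 with the smallest p, and the 3 most similar to each member, of which 1 is not reported here. Afp, Apom, Lcn2 and Apcs were named after their values were seen. Alternatives were RLE, upper-quartile, total-count and housekeeping scaling, library sizes without the members, DESeq2 1.42.0, other filters on low counts, no mitochondrially encoded genes, a length and GC offset, other denominators and lengths, leaving out each liver and, added after the data were seen, scaling to hepatocyte markers, with all livers and without each.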

Additional observations from a re-analysis of the deposited data

How the results depend on the processing

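The sign of the 7 log2 differences was kept in every alternative chosen at the start, and only the scaling to hepatocyte markers, added after the data were seen, turned it, for Alb (-0.11), Rbp4 (-0.25), Gc (-0.55), Ahsg (-0.40), Ambp (-0.38) and Azgp1 (-0.36), with Ttr at 0.27. Without 1 liver, Alb on that scale ran from -0.27 to 0.15 and Rbp4 from -0.46 to 0.049, both above 0 without sgCtrl liver 5.1, and Alb also without sgPrdx2 liver 1.3. The number of members called was 2 in edgeR, 7 in DESeq2, 1 with housekeeping scaling or at least 10 counts in every liver, 3 with no filter or the length and GC offset, and 0 to 1 without 1 liver. All genes called numbered 567, and 3247 with total counts alone (6.34% of them higher, against 53.8%), 1637 with housekeeping scaling (7.09% higher), 2052 in DESeq2, 1128 with no filter and 1049 with the offset. Without sgCtrl liver 5.1 or 7.2 or sgPrdx2 liver 1.1 or 1.3 edgeR called 0 genes (3114, 3119, 3328 and 3993 at an unadjusted p under 0.05), and up to 619 without sgPrdx2 liver 3.2. DESeq2 was not run on 5 livers. Log2 differences in the settings that changed a call were 0.58 (housekeeping scaling) and 0.96 (at least 10 counts) for Alb, and 0.84, 0.82 and 0.57 (DESeq2, no filter, offset) for Rbp4. In DESeq2 they were 0.53 for Gc, 0.69 for Ahsg, 0.71 for Ambp and 0.72 for Azgp1. Without 1 liver, Alb ran from 0.91 to 1.104, Ttr from 1.16 to 1.55, Ahsg from 0.44 to 0.87, and the Rbp4 to Ttr difference from -0.61 to -0.35. Housekeeping scaling turned the medians of retinol handling (-0.014), inter-alpha-inhibitor (-0.14), promoter factors (-0.074), secretory export (-0.29) and albumin uptake (-0.35), and the offset that of albumin uptake (-0.051). Depth limited no member, since the lowest count was 40939. The causes were not tested. No paired analysis was possible because the groups share no replicate number.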
